A study of Mus musculus with 12 samples.

Results

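The data described here are the expression levels of 10 early-response genes in LSKs of Tespa1+/+ and Tespa1-/- mice: the ZFP36-family genes Zfp36, Zfp36l1 and Zfp36l2, the IER genes Ier2, Ier3 and Ier5, and Sik1, Csrnp1, Kdm6b and Rhob. They were taken by gene symbol from a table of 53465 genes, and each symbol had a row. All 10 passed the filter on low counts in every comparison. The symbols were listed with earlier results of these libraries known, among them lower levels of other early-response genes in Tespa1-/- LSKs. For the 10 genes and the lists of their partners and targets, the comparison of genotypes in untreated LSKs is therefore given as a description without p-values, as are the comparisons that share its libraries. The comparison of genotypes after 5-fluorouracil (5-FU) rests on other libraries and is given with adjusted p-values, although earlier results of those libraries were known too.

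LSKs are Lin- Sca-1+ c-Kit+ bone marrow cells, the fraction that holds hematopoietic stem cells and multipotent progenitors. The 4 groups of 3 RNA-seq libraries were untreated Tespa1+/+ LSKs from wild-type littermates, untreated Tespa1-/- LSKs, and LSKs of each genotype at day 9 after injection of 5-FU, an antimetabolite that kills cycling cells. The Tespa1-/- mice (B6.129S-Tespa1 tm1Smoc) carry a targeted allele, for which the methods name no inducible or cell-type driver, and were backcrossed to C57BL/6, and the study used male mice, young adults except in its work on middle-aged mice. Neither the labels nor the methods say whether animals were pooled or whether libraries of a group came from separate mice, so the p-values measure the spread between these libraries, which may be technical.

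Early-response genes are transcribed within minutes of a growth factor, cytokine, calcium or stress signal and need no new protein for it. Their transcripts are mostly short-lived. ZFP36 (tristetraprolin), ZFP36L1 and ZFP36L2 are zinc-finger proteins that bind AU-rich elements in 3′ untranslated regions (UTRs) and recruit the CCR4-NOT deadenylase, which shortens the life of the bound transcript. IER2 and IER5 are nuclear proteins with a shared N-terminal region, and IER3 (IEX-1) modulates cell survival and ERK signalling. SIK1 is a salt-inducible kinase of the AMPK-related family that phosphorylates CRTC coactivators of CREB and class IIa histone deacetylases. CSRNP1 is a nuclear protein induced by AXIN1, KDM6B (JMJD3) removes methyl groups from lysine 27 of histone H3, and RHOB is a short-lived endosomal small GTPase.

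The AU-rich element is shown first because ZFP36-family proteins bind it and the transcripts of the family carry it themselves. The heptamer TATTTAT, searched on the sense strand with overlaps counted, was found in the 3′ UTR of 6 of the 10 genes. Of 12894 protein-coding genes that were tested and have an annotated 3′ UTR, 27.1% held it. The 3′ UTRs of Zfp36, Zfp36l1 and Zfp36l2 held 3 copies each, that of Ier3 held 4, and those of Csrnp1 and Kdm6b held 1 each. Those of Ier2, Ier5, Sik1 and Rhob held none. Long 3′ UTRs hold more copies by length alone: at least as many copies as in Ier3 were found in 0.637% of genes with a 3′ UTR of similar length (80% to 125%), and the corresponding shares were 1.10% for Zfp36, 3.54% for Zfp36l1 and 3.60% for Zfp36l2. For Csrnp1 and Kdm6b the shares were 26.8% and 30.7%. Not every site is printed: some of those of Zfp36, Zfp36l1, Zfp36l2 and Ier3 are left out. The sites shown run 5′ to 3′ on the gene's strand with the heptamer in capitals (GRCm38, GENCODE M21).
Zfp36, chr7:28376967-28376993, minus strand: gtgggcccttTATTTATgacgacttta
Zfp36, chr7:28376927-28376953, minus strand: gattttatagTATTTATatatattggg
Zfp36l1, chr12:80108423-80108449, minus strand: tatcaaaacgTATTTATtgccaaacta
Zfp36l2, chr17:84184915-84184941, minus strand: ctatttaactTATTTATtatcttgtga
Ier3, chr17:35822532-35822558, plus strand: gtgtatgtaaTATTTATtctaacttat
Ier3, chr17:35822587-35822613, plus strand: gtaacacagaTATTTATtacgatttat
Csrnp1, chr9:119972068-119972094, minus strand: actctgaattTATTTATttttttatgt
Kdm6b, chr11:69399198-69399224, minus strand: cactcacctcTATTTATtcattttttt

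Totals ran from 22118154 to 28275079 counts per library. Tespa1, the deleted gene, had 49.9, 43.1 and 46.6 CPM (counts scaled to the library total times its TMM factor) in untreated Tespa1+/+ libraries and 34.6, 35 and 34.9 CPM in untreated Tespa1-/- libraries. After 5-FU it had 47.2, 55.1 and 57.5 CPM in Tespa1+/+ and 20.9, 19.8 and 17.3 CPM in Tespa1-/- libraries, so reads on the locus were lower but present in every Tespa1-/- library. Untreated Tespa1-/- libraries kept 74.9% of the Tespa1+/+ level in the fit and those after 5-FU 36.2%. Which exons the allele removes is not given in the sources used here, so counts over the whole gene check the labels only by their direction. Of 12 genes that mark LSKs, all were detected in every group, and their summed level ran from 1824 to 1926 CPM, from 1572 to 1637 CPM, from 1689 to 1752 CPM and from 1054 to 1167 CPM in the groups in the same order. The summed level of 12 neutrophil genes was 2.54 to 3.07 CPM, 7.03 to 8.35 CPM, 9.15 to 13.3 CPM and 1088 to 1091 CPM, although the sort removes lineage-positive cells. In bulk libraries, fewer cells of a type and less RNA per cell cannot be told apart.

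Annotation places the 10 genes among compact loci. Their median locus length was 3743.5 bp and their median number of exons 2, against 23530.0 bp and 9 exons over 13209 protein-coding genes tested. Ier2 (chromosome 8, 84661331 to 84662852), Ier5 (chromosome 1, 155096361 to 155099636) and Rhob (chromosome 12, 8497661 to 8500009) have a single exon. Zfp36 (chromosome 7, 28376784 to 28380253), Zfp36l1 (chromosome 12, 80107754 to 80113013), Zfp36l2 (chromosome 17, 84183931 to 84187947) and Ier3 (chromosome 17, 35821684 to 35822923) have 2 exons. Csrnp1 (chromosome 9, 119971163 to 119984658) has 5 exons, Sik1 (chromosome 17, 31844248 to 31855792) has 14 and Kdm6b (chromosome 11, 69398508 to 69413675) has 23. All lie on the minus strand except Ier3. Csrnp1 overlaps Cx3cr1 on the same strand, whose counts came to 4.95% of those of Csrnp1 over the 12 libraries, and 1700019L13Rik on the opposite strand at 1.46%. The genes on the opposite strand over Zfp36, Zfp36l1 and Kdm6b had at most 0.336% of the counts of the gene they overlap. Zfp36l2 is overlapped on the opposite strand by AC132455.1, for which no counts were available. The use of strand in counting is not given in the sources used here.

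Untreated Tespa1-/- LSKs had less of all 10 transcripts than untreated Tespa1+/+ LSKs. The difference ran from 1.12-fold for Rhob to 2.51-fold for Csrnp1. Sik1, Csrnp1 and Kdm6b in Tespa1-/- LSKs stood at 45.8%, 39.9% and 49.8% of their Tespa1+/+ levels, and Zfp36 and Ier3 at 54.4% each. The comparison addresses what the loss of Tespa1 goes along with before any stress. By the quasi-likelihood test of edgeR 9 of the 10 genes, Rhob excepted, were lower at an adjusted p under 0.05, where 3.59% of 17055 genes tested were lower by this rule, but the choice of the genes is not independent of these libraries and the count is given as a description only. Ier5 lost its call without any single Tespa1-/- library, and Zfp36l1 without library 2 of Tespa1-/-. With a fold change above 1.5 as well, 6 were left beside 1.54% of all genes, and with that fold and an unadjusted p 6 beside 3.2%. A description too are the 10 genes whose Tespa1-/- libraries all lay below all Tespa1+/+ libraries, as did 13.2% of all genes tested. Their median log2 fold change was -0.78, with 0.01 for the whole of the genes tested.

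**Figure D1:**
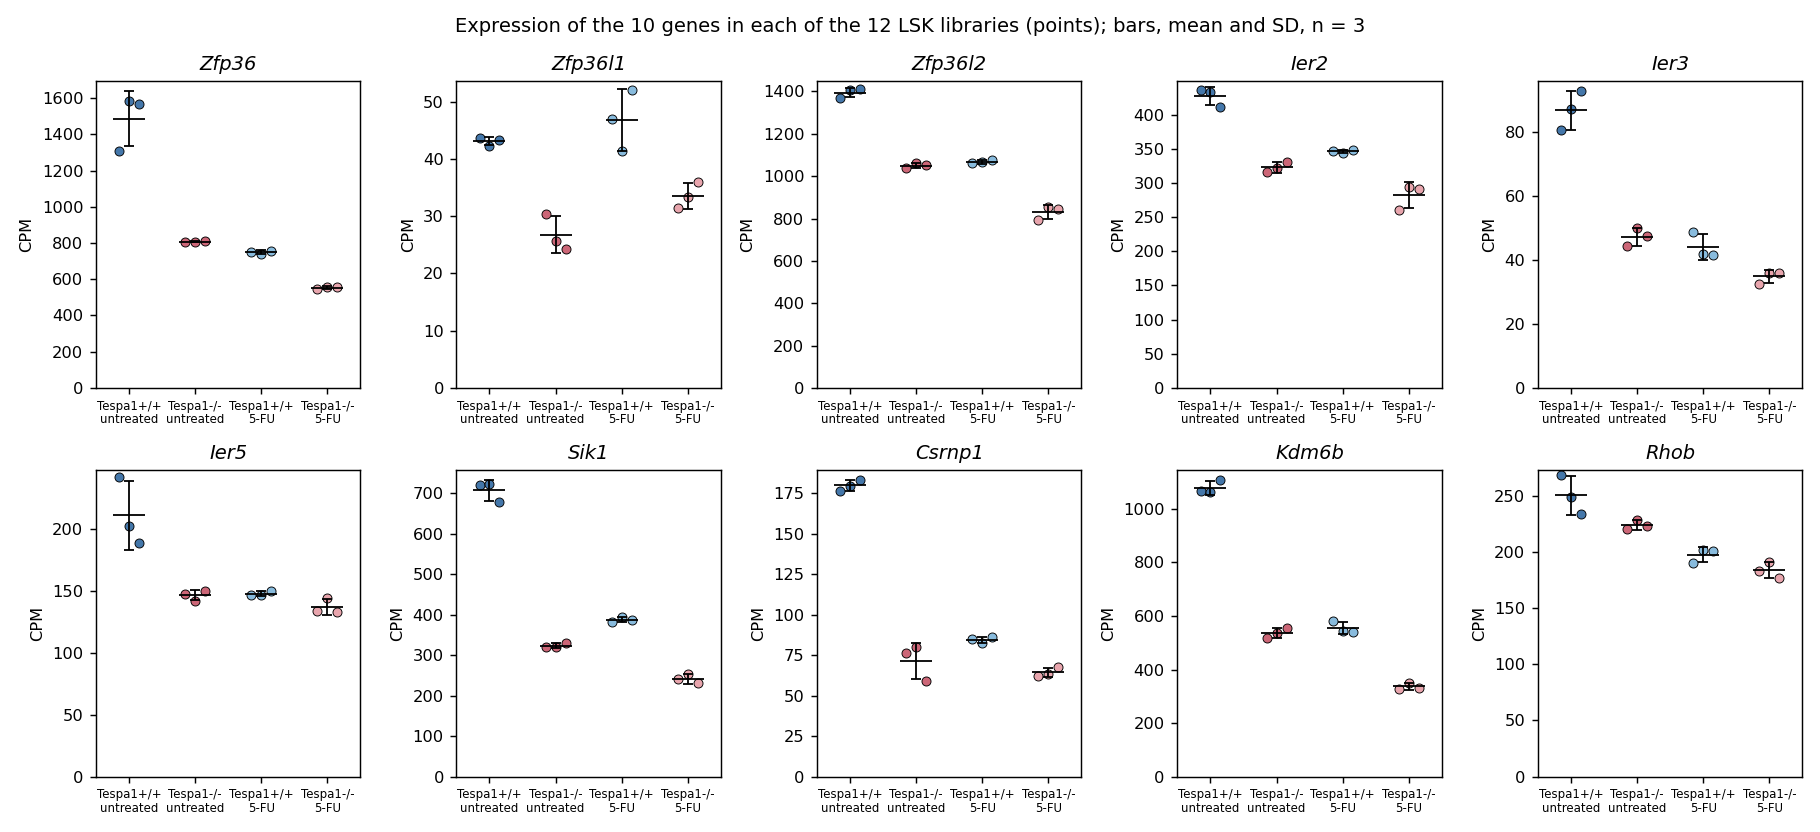
Expression of the 10 genes in CPM (vertical axes, from 0) in the 12 LSK libraries, grouped by genotype and treatment on the horizontal axes, with points for libraries and bars for mean and SD (n = 3). For 9 genes, Zfp36l1 excepted, the untreated Tespa1+/+ libraries lie highest. For all 10 genes the untreated Tespa1-/- libraries lie below them, as at 319 to 331 CPM against 677 to 724 CPM for Sik1.

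Among the RNA-binding proteins, Zfp36 had 1309, 1582 and 1567 CPM in libraries 1 to 3 of untreated Tespa1+/+ LSKs and 807, 807 and 810.5 CPM in those of Tespa1-/- LSKs. Its log2 fold change was -0.88 (SE 0.066). The Tespa1-/- libraries differed from each other by less than 1%, while the Tespa1+/+ libraries had a SD of 153 CPM around a mean of 1486 CPM. Zfp36l1 had 43.7, 42.3 and 43.3 CPM against 30.4, 25.6 and 24.2 CPM, a log2 fold change of -0.69 (SE 0.11). Zfp36l2 had 1368, 1405 and 1411 CPM against 1038, 1061 and 1052 CPM, a log2 fold change of -0.41 (SE 0.027). The 3 family members were thus all lower, Zfp36 by 1.84-fold and Zfp36l2 by 1.33-fold.

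Of the IER genes, Ier3 differed most. It had 80.5, 87.1 and 92.6 CPM in Tespa1+/+ and 44.2, 49.9 and 47.3 CPM in Tespa1-/- LSKs, a log2 fold change of -0.88 (SE 0.082). Ier2 ran from 412 to 436 CPM against 315 to 331 CPM, with a log2 fold change of -0.40 (SE 0.044). Ier5 ran from 188 to 242 CPM against 142 to 149.6 CPM, with a log2 fold change of -0.53 (SE 0.09), and its Tespa1+/+ libraries spread more widely (SD 27.9 CPM) than its Tespa1-/- libraries (SD 4.02 CPM).

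The kinase gene Sik1 had 720.1, 724 and 677 CPM in untreated Tespa1+/+ and 321, 319 and 331 CPM in untreated Tespa1-/- libraries, a log2 fold change of -1.13 (SE 0.042). The demethylase gene Kdm6b had 1065, 1063 and 1107 CPM against 519, 536 and 556 CPM, a log2 fold change of -1.005 (SE 0.038). Both sets of libraries were tight, and the gap between the groups was more than 10 times the larger SD in each gene. Csrnp1 had 177, 179.6 and 183 CPM against 76.2, 79.8 and 59 CPM, a log2 fold change of -1.33 (SE 0.11), and library 3 of Tespa1-/- lay below the other 2. Rhob, the GTPase gene, had 269, 249.5 and 234 CPM against 220.4, 229 and 223 CPM. Its log2 fold change of -0.16 (SE 0.059) was the smallest of the 10, and its lowest Tespa1+/+ library lay close to its highest Tespa1-/- library.

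Beside these differences, the summed level of the 12 LSK markers was lower in untreated Tespa1-/- libraries, and 3 of the 12 passed the test. Of 12 neutrophil markers, 5 were tested and 0 passed (edgeR; unadjusted p under 0.05, 4 higher; DESeq2, 1 higher), with Ltf, Camp and Cd177 at 0 in Tespa1+/+ and Retnlg and Cd177 at 0 in Tespa1-/- libraries. The summed level of 11 heat-shock chaperones, genes that cells raise under handling stress, ran from 7556 to 8178 CPM in Tespa1+/+ and from 7855 to 8058 CPM in Tespa1-/- libraries, so these ranges overlapped, while 2 of the 10 tested, Hsph1 and the inducible HSP70 gene Hspa1b, were higher in Tespa1-/- LSKs. Of the 9 erythroid markers tested 1 was higher, and of the 8 B-lymphoid markers tested 3 were lower. Over all genes tested, 1.64% were called higher and 3.59% lower, the shares beside which each count of markers here stands. Of the 7 macrophage markers tested 1 was higher, with summed levels of 81.6 to 94.8 CPM in Tespa1+/+ and 110.5 to 115.5 CPM in Tespa1-/- libraries. Of T and NK cell markers 3 and of stroma and endothelium markers 6 were tested and 0 called (edgeR; unadjusted p under 0.05 and DESeq2, 0), with summed levels of 28.1 to 30.4 CPM against 33.1 to 37.3 CPM and of 162 to 169 CPM against 173 to 187 CPM. The part of these shifts in the result was not tested.

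After 5-FU the genotypes differed in the same direction. All 10 genes were lower in Tespa1-/- LSKs in the fit, and 7 of them passed an adjusted p of 0.05: Zfp36, Zfp36l1, Zfp36l2, Ier2, Sik1, Csrnp1 and Kdm6b. Over all 17239 genes tested, 5.78% were lower by this rule. The fitted differences were smaller than in untreated LSKs for all 10 and ran from 1.23-fold for Ier2 to 1.66-fold for Kdm6b among the 7 genes. With a fold change above 1.5 as well, Sik1 and Kdm6b were left, 2 of 10 beside 3.03% of all genes. The rule of the study, that fold and an unadjusted p under 0.05, left the same 2, beside 5.94% of all genes. On the log2 scale the median of the 10 genes was -0.38, that of every gene tested -0.01. Tespa1-/- libraries lay wholly below Tespa1+/+ libraries in 9 of the 10, Rhob excepted, and in 15.6% of all genes.

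Kdm6b and Sik1 had the largest differences. Kdm6b had 582, 545 and 542 CPM in Tespa1+/+ and 328, 350.2 and 332 CPM in Tespa1-/- LSKs after 5-FU. Its log2 fold change was -0.73 (SE 0.048), with adjusted p = 2.05e-05 (edgeR, quasi-likelihood). Sik1 had 382, 395 and 387 CPM against 241, 253 and 230.1 CPM, a log2 fold change of -0.69 (SE 0.05), with adjusted p = 3.79e-05 (edgeR). In both genes the gap between the groups was several times the spread within them.

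The 3 ZFP36-family genes were all lower. Zfp36 had 753, 737 and 756 CPM in Tespa1+/+ and 545, 558 and 556 CPM in Tespa1-/- LSKs, a log2 fold change of -0.44 (SE 0.035) (adjusted p = 6.66e-05, edgeR). Zfp36l2 had 1061, 1065 and 1077 CPM against 794, 856 and 847 CPM, a log2 fold change of -0.36 (SE 0.037) (adjusted p = 0.000263, edgeR). For Zfp36l1, the least abundant of the family, the libraries had 46.9, 41.4 and 52.1 CPM against 31.4, 33.3 and 35.9 CPM. Its log2 fold change of -0.48 (SE 0.12) passed the threshold (adjusted p = 0.0246, edgeR), but it did not when library 1 or 3 of Tespa1+/+ or library 1 or 2 of Tespa1-/- was left out (adjusted p = 0.0662, 0.0886, 0.0914 and 0.0781).

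Csrnp1 had 84.7, 82.6 and 86.1 CPM in Tespa1+/+ and 62, 63.5 and 67.6 CPM in Tespa1-/- LSKs after 5-FU, a log2 fold change of -0.40 (SE 0.074) (adjusted p = 0.00755, edgeR). Ier2 had 346, 344 and 348 CPM against 260.2, 294 and 291 CPM, a log2 fold change of -0.30 (SE 0.057) (adjusted p = 0.00782, edgeR). The groups did not overlap in either gene. Ier3 had 48.7, 41.7 and 41.4 CPM against 32.6, 35.8 and 36 CPM. Its log2 fold change of -0.34 (SE 0.11) missed the threshold (adjusted p = 0.0741, edgeR), and passed it with DESeq2 (adjusted p = 0.0406) and with all 12 libraries in 1 edgeR fit (adjusted p = 0.0246). Ier5, with 146 to 149.7 CPM against 133 to 144 CPM, and Rhob, with 190.0 to 202 CPM against 177 to 192 CPM, had log2 fold changes of -0.11 (SE 0.06) and -0.11 (SE 0.056). Neither passed the threshold (adjusted p = 0.277 for both, edgeR).

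Markers of other cells moved with genotype after 5-FU. Of the 12 neutrophil markers, 11 were higher in Tespa1-/- libraries at an adjusted p under 0.05 (edgeR), with Retnlg, Fcnb and Cd177 at 0 in Tespa1+/+ libraries and none at 0 in Tespa1-/- libraries. All 11 erythroid markers were higher too, with summed levels of 245 to 269 CPM in Tespa1+/+ and 775 to 821 CPM in Tespa1-/- libraries. Of the LSK markers, 8 of 12 were lower. Over all genes tested, 7.34% were called higher and 5.78% lower, the shares beside which each count of markers here stands. B-lymphoid markers (2 of 9 higher, 403 to 417 CPM against 472 to 479 CPM), T and NK cell markers (2 of 7 higher, 34.0 to 40.4 CPM against 59.3 to 66.8 CPM) and macrophage markers (1 of 8 higher, 68.3 to 72.0 CPM against 89.9 to 113 CPM) had summed levels that did not overlap. Of 7 markers of stroma and endothelium 1 was lower (154 to 163 CPM against 123 to 135 CPM). The part of these shifts in the differences of the 10 genes was not tested.

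**Figure D2:**
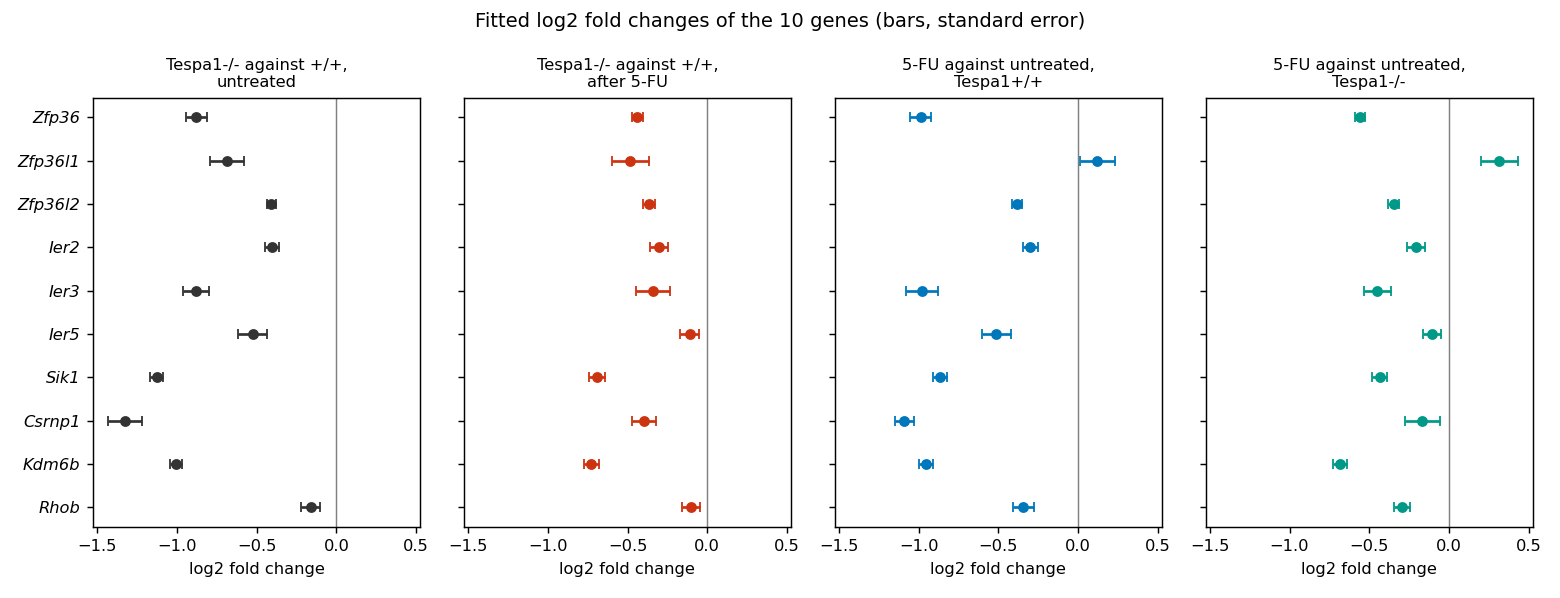
Log2 fold changes of the 10 genes (horizontal axes) with their standard errors (bars) in the comparisons of genotype in untreated LSKs and after 5-FU and of 5-FU in each genotype, from edgeR fits of 6 libraries each. Points left of 0 are lower in Tespa1-/- LSKs (left panels) or after 5-FU (right panels), and Zfp36l1 lies right of 0 in both 5-FU panels, at 0.12 and 0.32.

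At day 9 after 5-FU, Tespa1+/+ LSKs had less of 9 of the 10 transcripts than untreated Tespa1+/+ LSKs. Csrnp1 was 2.13-fold lower, Zfp36 1.98-fold, Ier3 1.97-fold, Kdm6b 1.94-fold and Sik1 1.82-fold. Zfp36l1 was the exception, with 41.4 to 52.1 CPM after 5-FU and 42.3 to 43.7 CPM before. This comparison, which shares the untreated Tespa1+/+ libraries with the one above, asks how LSKs at that day differ from those of untreated mice. The 9 genes were lower at an adjusted p under 0.05 in edgeR, as were 4.18% of 17002 genes tested. With a fold change above 1.5 as well, 5 were left beside 1.69% of all genes, and with that fold and an unadjusted p 5 beside 3.54%. The 9 genes had libraries that did not overlap, as did 14.4% of all genes. The median of the 10 genes on the log2 scale was -0.69, that of every gene tested 0.01.

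By role, the log2 fold changes in Tespa1+/+ LSKs were -0.99 (SE 0.066) for Zfp36, 0.12 (SE 0.11) for Zfp36l1 and -0.38 (SE 0.03) for Zfp36l2. Of the IER genes, Ier3 had -0.98 (SE 0.10), Ier5 -0.51 (SE 0.09) and Ier2 -0.30 (SE 0.046). Sik1, Csrnp1 and Kdm6b had -0.87 (SE 0.044), -1.09 (SE 0.061) and -0.95 (SE 0.042), and Rhob had -0.34 (SE 0.066). Within the ZFP36 family the genes thus parted, since Zfp36 stood at 50.4% and Zfp36l2 at 76.6% of the untreated level while Zfp36l1 had overlapping groups. Rhob lost its call without library 1 of Tespa1+/+ after 5-FU.

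Markers of other cells moved with 5-FU in Tespa1+/+ LSKs. All 8 B-lymphoid markers tested were higher (summed level 80.4 to 92.6 CPM before and 403 to 417 CPM after), as were 4 of 8 erythroid markers (146 to 172 CPM and 245 to 269 CPM) and 2 of 6 neutrophil markers. Of 12 LSK markers 3 were higher and 2 lower. The counts of markers are those at an adjusted p under 0.05 (edgeR), beside 3.77% of all genes tested higher and 4.18% lower. Of stroma and endothelium markers 1 of 6 was higher and 1 lower. Of 3 T and NK cell markers 0 were called (edgeR; unadjusted p under 0.05 and DESeq2, 2 higher and 1 lower), and of 7 macrophage markers 0 (unadjusted p under 0.05, 2 lower; DESeq2, 1 lower), whose summed level was 81.6 to 94.8 CPM before and 68.3 to 72.0 CPM after. Of 11 heat-shock chaperones 6 were lower, beside 4.18% of all genes, and their summed level was 7556 to 8178 CPM before and 6192 to 6406 CPM after. The part of these shifts in the differences of the 10 genes was not tested.

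In Tespa1-/- LSKs, 9 of the 10 genes were also lower after 5-FU, and 7 of them at an adjusted p under 0.05, where 8.64% of 17228 genes tested were lower by this rule. With a fold change above 1.5 as well, Kdm6b alone was left (4.07% of all genes), also with an unadjusted p (6.58%). In these 7 genes all 5-FU libraries lay below all untreated ones, as they did in 18.2% of all genes tested. The median of the 10 genes was -0.32 on the log2 scale, that of every gene tested -0.01. Kdm6b had the largest value, -0.68 (SE 0.043), followed by Zfp36 at -0.56 (SE 0.03), Ier3 at -0.45 (SE 0.086) and Sik1 at -0.44 (SE 0.047). Zfp36l2, Rhob and Ier2 had -0.35 (SE 0.035), -0.29 (SE 0.048) and -0.21 (SE 0.055). Csrnp1 and Ier5, with log2 fold changes of -0.17 (SE 0.11) and -0.11 (SE 0.055), had overlapping groups and missed the threshold, although Csrnp1 passed it without library 3 of untreated Tespa1-/-. Zfp36l1 was higher in every 5-FU library than in every untreated one (31.4 to 35.9 CPM against 24.2 to 30.4 CPM), as were 20.3% of all genes, with a log2 fold change of 0.32 (SE 0.11) that missed the threshold too. Ier2 dropped out of the called genes when no filter on low counts was applied and in 4 of the 6 fits that left out 1 library, those without any single untreated library or without library 1 after 5-FU.

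Markers moved with 5-FU in Tespa1-/- LSKs as well. Of the 12 neutrophil markers 11 were higher (summed level 7.03 to 8.35 CPM before and 1088 to 1091 CPM after), as were all 11 erythroid markers (164 to 174 CPM and 775 to 821 CPM) and 8 of 9 B-lymphoid markers (54.4 to 61.7 CPM and 472 to 479 CPM). Of T and NK cell markers 4 of 7 were higher and 1 lower, of macrophage markers 3 of 8 and 1, and of stroma and endothelium markers 1 of 6 and 3. Of 12 LSK markers 4 were higher and 3 lower. The counts of markers are those at an adjusted p under 0.05 (edgeR), beside 10.7% of all genes tested higher and 8.64% lower. Of the 10 heat-shock chaperones tested 6 were lower, beside 8.64% of all genes. The part of these shifts in the differences of the 10 genes was not tested either.

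**Figure D3:**
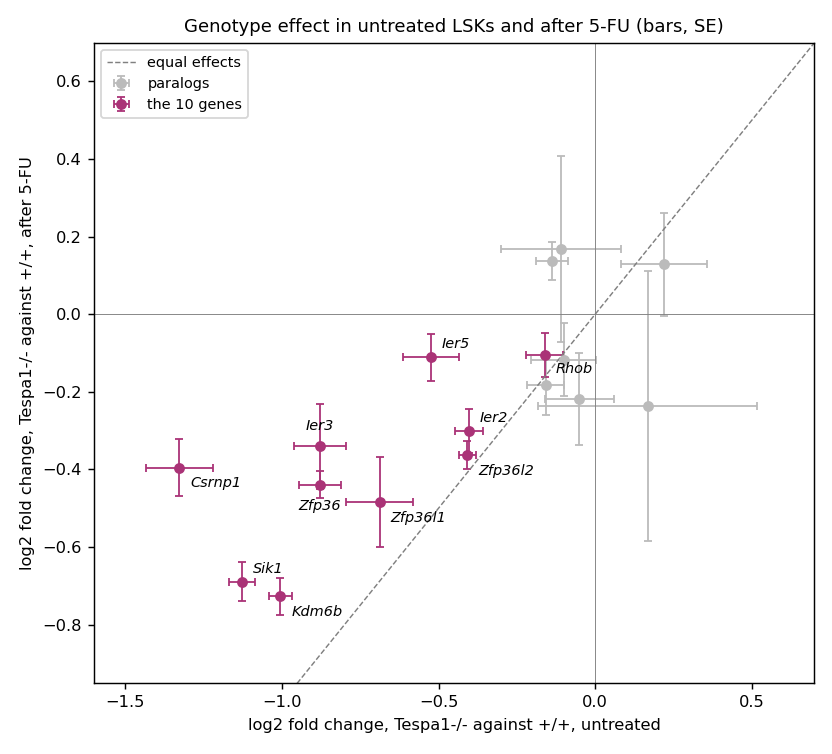
Log2 fold change between genotypes in untreated LSKs (horizontal axis) and after 5-FU (vertical axis) for the 10 genes (purple) and 7 paralogs (grey), with standard errors as bars. All 10 genes lie left of 0, at or above the dashed line of equal effects, with Csrnp1 farthest from it (-1.33 and -0.40), while the paralogs scatter around 0.

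The difference of the genotype effect between treatments was fitted on all 12 libraries, as the effect after 5-FU minus that in untreated LSKs. It was positive for all 10 genes, and 6 passed an adjusted p of 0.05 in edgeR, where 3.02% of 18696 genes tested were positive by this rule. With a size above 1.5-fold as well, Csrnp1 was left (1.66% of all genes), also with an unadjusted p (4.16%). Since the untreated libraries enter it, this is a description as well. Csrnp1 had the largest difference, 0.94 (SE 0.13) on the log2 scale, followed by Ier3 at 0.54 (SE 0.13), Zfp36 at 0.44 (SE 0.078), Sik1 at 0.44 (SE 0.062), Ier5 at 0.42 (SE 0.11) and Kdm6b at 0.28 (SE 0.059). Zfp36l1, Ier2, Rhob and Zfp36l2 had 0.21 (SE 0.16), 0.11 (SE 0.07), 0.06 (SE 0.08) and 0.05 (SE 0.044). For Zfp36l2 the effect of genotype was thus of similar size with and without 5-FU, -0.36 and -0.41, and that of 5-FU similar in both genotypes, -0.35 and -0.38. The count of 6 was between 3 and 5 in each of the 12 fits that left out 1 library, since Ier5 lost its call in 11 of them, Ier3 in 8 and Kdm6b in 3. It was 3 without library 2 of Tespa1+/+ after 5-FU, without library 3 of that group, or without library 2 of Tespa1-/- after 5-FU, and 4 with the replicate block.

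Expression was compared between genes in FPKM, which divides by gene length. Zfp36l2 was the highest of the 10 in every group, from 390 ± 5.04 FPKM (SD, n = 3) in untreated Tespa1+/+ to 235 ± 9.64 FPKM in Tespa1-/- LSKs after 5-FU, above 98.9% to 99.3% of the 18200 genes tested. Zfp36 was next in untreated Tespa1+/+ LSKs, at 279 ± 27.8 FPKM, and its libraries overlapped those of Ier2 at 277 ± 9.57 FPKM. In the other groups Ier2 stood above Zfp36, at 211 ± 4.39 against 153 ± 0.190 FPKM in untreated Tespa1-/-, 232 ± 1.47 against 145 ± 1.93 FPKM in Tespa1+/+ after 5-FU and 185 ± 12.5 against 105 ± 1.45 FPKM in Tespa1-/- after 5-FU, with no overlap of libraries. Sik1, Kdm6b and Rhob filled the next 3 places in every group. Sik1 (155 ± 6.13 FPKM) overlapped Kdm6b (146 ± 2.95 FPKM) in untreated Tespa1+/+, as did Kdm6b and Sik1 in untreated Tespa1-/- (73.4 ± 2.39 and 71.3 ± 1.09 FPKM) and Sik1 and Rhob in Tespa1+/+ after 5-FU (87.6 ± 1.74 and 85.7 ± 3.18 FPKM). Rhob moved from the sixth place in untreated Tespa1+/+ to the fourth in both Tespa1-/- groups. Ier3 and Ier5 followed and overlapped in the untreated groups. Csrnp1 and then Zfp36l1 came last throughout, Csrnp1 from 25.0 ± 0.364 FPKM down to 9.03 ± 0.434 FPKM and Zfp36l1 between 4.61 ± 0.565 and 8.28 ± 0.954 FPKM. All 10 genes lay above at least 62.0% of the genes tested in each group.

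Paralogs that are not counted among early-response genes were read beside them. Of Ier5l, Sik2, Sik3, Csrnp2, Csrnp3, Kdm6a, Uty, Rhoa and Rhoc, 7 passed the filter in each comparison of 6 libraries. Between genotypes 0 of the 7 passed an adjusted p of 0.05 in untreated LSKs or after 5-FU, with edgeR or with DESeq2. Over all genes tested in edgeR, 3.59% were lower and 1.64% higher in untreated LSKs, and 5.78% and 7.34% after 5-FU. With only 7 genes, a count of 0 lies near these shares. At an unadjusted p under 0.05 there were 2 in each comparison, Sik3 and Rhoa. Sik3, a salt-inducible kinase like SIK1, had 126, 135 and 135 CPM in untreated Tespa1+/+ and 115, 117 and 123 CPM in untreated Tespa1-/- libraries, a log2 fold change of -0.16 (SE 0.059) with adjusted p = 0.196 from edgeR. Rhoa, a close relative of Rhob, had 289, 310.3 and 299 CPM against 280.0, 276 and 259.7 CPM, a log2 fold change of -0.14 (SE 0.051) with adjusted p = 0.186 from edgeR. After 5-FU the log2 fold change between genotypes was -0.18 (SE 0.078) for Sik3 and 0.14 (SE 0.049) for Rhoa (adjusted p = 0.173 and 0.105, edgeR).

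Of 5-FU itself, Rhoa fell in Tespa1+/+ LSKs, by 0.26 on the log2 scale (SE 0.054, adjusted p = 0.0184, edgeR), and had a log2 fold change of 0.01 (SE 0.046) in Tespa1-/- LSKs. The call in Tespa1+/+ was lost in 3 of the 6 fits that left out 1 library (adjusted p up to 0.0789). Sik3 fell in Tespa1-/- LSKs, by 0.19 (SE 0.056, adjusted p = 0.0469, edgeR), a call lost in all 6 fits that left out 1 library (adjusted p from 0.0631 to 0.148). The paralogs at a level of at least 10 CPM were Sik2 (35.1 to 50.9 CPM in untreated Tespa1+/+), Sik3, Rhoa, the H3K27 demethylase gene Kdm6a (60.1 to 72.6 CPM) and its Y-linked relative Uty (29.3 to 35.4 CPM). Csrnp2 and Ier5l had 7.65 to 10.7 CPM and 1.65 to 4.07 CPM in that group. Csrnp3 had 0 counts in every untreated Tespa1+/+ library and every Tespa1-/- library after 5-FU, but 9, 18 and 20 counts in untreated Tespa1-/- and 7, 12 and 14 counts in Tespa1+/+ libraries after 5-FU.

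The pathways around the 10 genes were described with 4 lists of partners and targets and a list of other primary-response genes, each given by counts at an adjusted p under 0.05 in edgeR and by its median. The medians of all genes tested lay between -0.01 and 0.01 in each comparison. The proteins that ZFP36 works with, 19 genes of the CCR4-NOT complex, of decapping and decay and of the p38 pathway, were mostly not called. In untreated LSKs 3 of 19 were lower in Tespa1-/- and 0 higher, against 3.59% and 1.64% of all genes tested (unadjusted p under 0.05, 1 higher; DESeq2, 0 higher), and the list's median was 0.00 on the log2 scale. Those with the largest differences were Tob1 and Tob2, antiproliferative adaptors that link RNA-binding proteins to the deadenylase. Tob1 stood at 40.8 ± 1.93 CPM (SD, n = 3) in Tespa1+/+ and at 24.2 ± 1.87 CPM in Tespa1-/- LSKs, a log2 fold change of -0.75 (SE 0.10). Tob2 had a log2 fold change of -0.45 (SE 0.067). After 5-FU, 2 were lower and 1 higher, against 5.78% and 7.34% of all genes, with a median of -0.10. Cnot6l and Cnot7, deadenylase subunits, were lower in Tespa1-/- LSKs by 0.54 and 0.41 on the log2 scale, while Mapkapk2, the kinase that phosphorylates ZFP36, was higher by 0.29 (adjusted p = 0.00153, 0.0192 and 0.0043, edgeR). With 5-FU, 2 were lower and 0 higher in Tespa1+/+ LSKs, against 4.18% and 3.77% (unadjusted p under 0.05 and DESeq2, 1 higher), and 2 lower and 1 higher in Tespa1-/- LSKs, against 8.64% and 10.7%. The medians were -0.02 and -0.05.

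AU-rich transcripts, those known as targets of the ZFP36 family, were mostly lower in untreated Tespa1-/- LSKs. Of 22 such genes 19 were tested in untreated LSKs, and 13 were lower and 0 higher, against 3.59% and 1.64% of all genes tested (unadjusted p under 0.05, 0 higher; DESeq2, 0 higher). The median log2 fold change was -0.66. Il10, an anti-inflammatory cytokine, had 4.78 ± 0.88 CPM (SD, n = 3) in Tespa1+/+ and 0.955 ± 0.315 CPM in Tespa1-/- LSKs, and Lif, a cytokine of the IL-6 family, had 44 ± 11.8 CPM against 10.4 ± 6.05 CPM. Their log2 fold changes were -2.32 (SE 0.35) and -2.07 (SE 0.45). After 5-FU, 5 of 21 were lower and 2 higher, against 5.78% and 7.34% of all genes tested, with a median of -0.08. Cdkn1a, the cell-cycle inhibitor p21, fell from 89.8 ± 5.55 CPM in Tespa1+/+ to 49.7 ± 3.6 CPM in Tespa1-/- LSKs (log2 fold change -0.86 (SE 0.088), adjusted p = 0.000274, edgeR), and the survival gene Bcl2 had a log2 fold change of -0.58 (SE 0.071) (adjusted p = 0.000796, edgeR). Il6 was higher, at 2.26 ± 0.71 CPM against 0.144 ± 0.214 CPM (log2 fold change 3.92 (SE 0.99), adjusted p = 0.0306, edgeR). Of the 21 genes of the list with an annotated 3′ UTR, 85.7% held the heptamer shown above.

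In Tespa1+/+ LSKs, 5-FU went with 13 of 19 AU-rich transcripts lower and 0 higher (unadjusted p under 0.05, 0 higher; DESeq2, 0 higher), against 4.18% and 3.77% of all genes tested. The median was -0.74 on the log2 scale. Il10 and Lif had -3.31 (SE 0.85) and -2.94 (SE 0.35). In Tespa1-/- LSKs, 9 of 21 were lower and 3 higher, against 8.64% and 10.7% of all genes tested, with a median of -0.28. The chemokine gene Ccl3 fell from 76.7 ± 1.62 CPM to 30.5 ± 3.55 CPM (log2 fold change -1.34 (SE 0.093)), and Ptgs2, the inducible prostaglandin synthase, fell by 1.05 on the log2 scale. Il6 and Ccl2, both under 3 CPM on average in every group, rose.

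**Figure D4:**
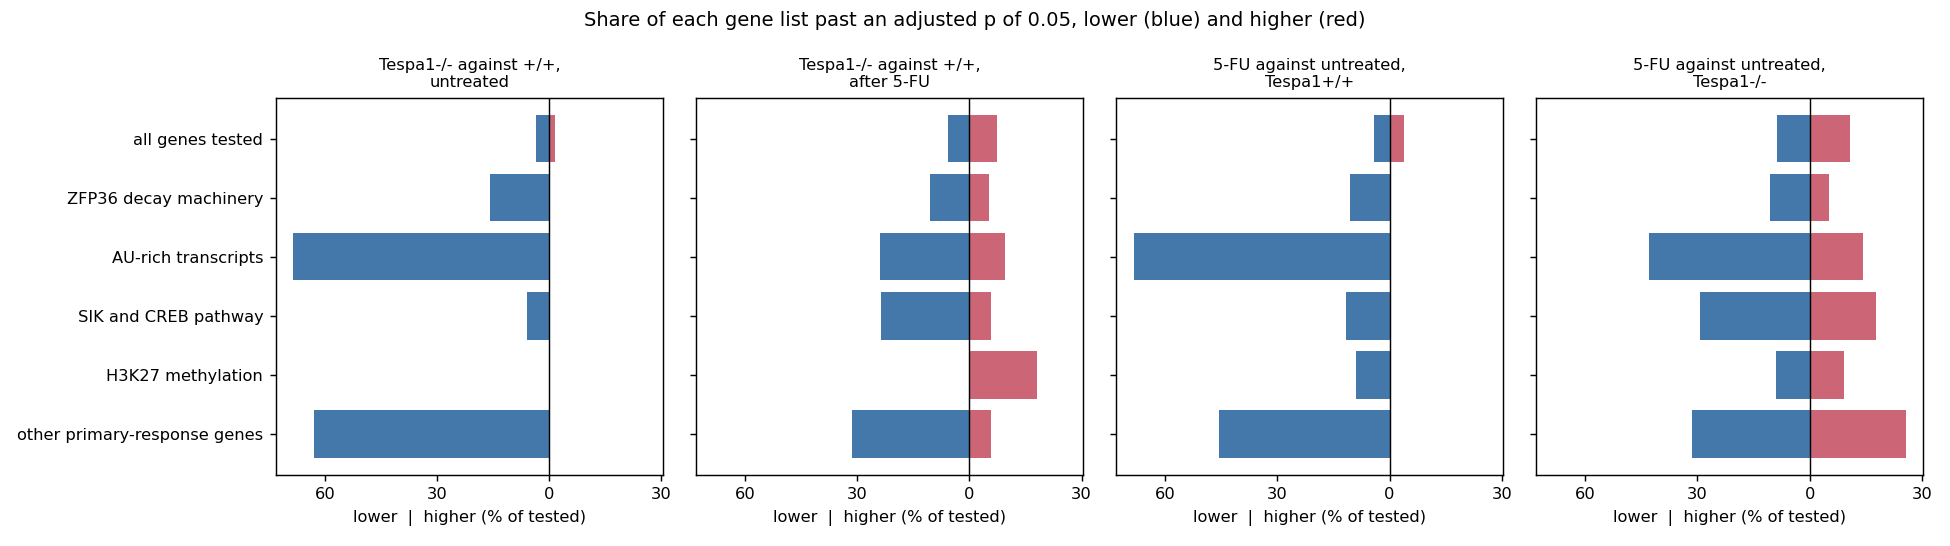
Share of the tested genes of each list (horizontal axes, percent) that passed an adjusted p of 0.05 in edgeR, lower to the left in blue and higher to the right in red, in the comparisons of genotype and of 5-FU. The bars of all genes tested stand at the top, at 3.59% lower and 1.64% higher for genotype in untreated LSKs, and the longest bars of that comparison are those of AU-rich transcripts (13 of 19 lower) and of other primary-response genes (22 of 35 lower).

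Genes of the SIK and CREB pathway and of H3K27 methylation were mostly not called between genotypes. Of 17 genes around SIK1, from its activating kinase STK11 to CRTC, CREB and MEF2 factors, 1 was lower in untreated Tespa1-/- LSKs and 0 higher, against 3.59% and 1.64% of all genes tested (unadjusted p under 0.05, 5 lower and 0 higher; DESeq2, 3 lower and 0 higher). This was Mef2d, a transcription factor held in check by class IIa histone deacetylases, with a log2 fold change of -0.49 (SE 0.061), and the median of the list was -0.12. After 5-FU 4 were lower and 1 higher, against 5.78% and 7.34%, with a median of -0.07. Among the lower genes were Mef2c, from 181 ± 29.8 CPM in Tespa1+/+ to 122 ± 2.19 CPM in Tespa1-/- LSKs (log2 fold change -0.57 (SE 0.11), adjusted p = 0.00772, edgeR) and Hdac9 (-0.82 (SE 0.23), adjusted p = 0.0415, edgeR). With 5-FU 2 were lower and 0 higher in Tespa1+/+ LSKs, against 4.18% and 3.77% (unadjusted p under 0.05, 1 higher; DESeq2, 0 higher), and 5 lower and 3 higher in Tespa1-/- LSKs, against 8.64% and 10.7%. The medians were -0.02 and -0.16.

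Of 11 genes of the PRC2 complex, which writes the mark that KDM6B removes, 0 were called in untreated LSKs, against 3.59% lower and 1.64% higher of all genes tested (unadjusted p under 0.05, 1 lower; DESeq2, 0), and the median was -0.11. After 5-FU 2 were higher and 0 lower, against 7.34% and 5.78% of all genes (unadjusted p under 0.05 and DESeq2, 0 lower), with a median of -0.08. Jarid2 and Rbbp7 were higher in Tespa1-/- LSKs, by 0.56 and 0.30 on the log2 scale (adjusted p = 0.00364 and 0.0134, edgeR). With 5-FU 1 was lower and 0 higher in Tespa1+/+ LSKs, against 4.18% and 3.77% (unadjusted p under 0.05 and DESeq2, 0 higher), and 1 lower and 1 higher in Tespa1-/- LSKs, against 8.64% and 10.7%. The medians were -0.08 and -0.03. Of the demethylase genes, Kdm6b was lower in both comparisons of genotype, while Kdm6a had log2 fold changes of -0.10 (SE 0.10) and -0.12 (SE 0.094) and Uty of -0.05 (SE 0.11) and -0.22 (SE 0.12), none of which passed the threshold.

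Of other primary-response genes 35 were listed, and all were tested. In untreated Tespa1-/- LSKs 22 were lower and 0 higher, against 3.59% and 1.64% of all genes tested (unadjusted p under 0.05, 0 higher; DESeq2, 0 higher), and their median was -0.68 on the log2 scale. Plk2, a polo-like kinase, had 153 ± 7.16 CPM (SD, n = 3) in Tespa1+/+ and 46.2 ± 1.5 CPM in Tespa1-/- LSKs, and Gem, a small GTPase, had 81.3 ± 10.3 CPM against 26.7 ± 1.32 CPM. Their log2 fold changes were -1.73 (SE 0.066) and -1.61 (SE 0.11). After 5-FU 11 were lower and 2 higher, against 5.78% and 7.34%, with a median of -0.15. Rgs1, a regulator of G protein signalling, fell by 1.28 (adjusted p = 1.25e-05) and Plk2 by 0.96 (adjusted p = 0.000313), while the growth-arrest gene Gadd45a and the pro-apoptotic gene Pmaip1 rose, by 0.78 and 0.61 on the log2 scale (adjusted p = 0.0253 and 0.0257, all from edgeR). With 5-FU 16 were lower and 0 higher in Tespa1+/+ LSKs, against 4.18% and 3.77% (unadjusted p under 0.05, 4 higher; DESeq2, 2 higher), and 11 lower and 9 higher in Tespa1-/- LSKs, against 8.64% and 10.7%. The medians were -0.41 and -0.02.

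The pattern of each gene over the 12 libraries was compared with the mean of the other 9, each on standardized log2 CPM, and as a description only, since the libraries share groups. Pearson's r was 0.99 for Sik1, 0.98 for Kdm6b and Ier2, 0.97 for Zfp36l2, between 0.92 and 0.96 for Zfp36, Ier3, Csrnp1 and Ier5, 0.81 for Rhob and 0.41 for Zfp36l1. Zfp36l1 thus stood apart, since it was low in both Tespa1-/- groups and not lower after 5-FU. Outside the 10, the genes most like their mean among 11195 with at least 5 CPM were Mcl1 (r = 0.994), which encodes a short-lived survival protein, Plk2 (0.993), Marcksl1 (0.993), Socs3 (0.991), a cytokine feedback inhibitor, and Padi2 (0.991). With Spearman's rho in place of Pearson's r, 0 of these 5 stayed among the 5 most alike. Mcl1 had 733 ± 3.91, 456 ± 13.0, 489 ± 5.27 and 394 ± 6.21 CPM (SD, n = 3 each) in untreated Tespa1+/+, untreated Tespa1-/-, Tespa1+/+ after 5-FU and Tespa1-/- after 5-FU. Socs3 had 202 ± 12.8, 101 ± 1.47, 111 ± 4.03 and 75.3 ± 1.44 CPM in the same order.

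Promoters are shown for 4 genes whose windows hold a match to at least 1 of the motifs searched. All 4 were lower in untreated Tespa1-/- LSKs, as were Ier5 and Rhob. RefSeq (GRCm38.p6) windows were found for 6 of the 10: Csrnp1, Ier3, Ier5, Rhob, Zfp36 and Zfp36l1. Each window runs from 250 bases before to 50 bases after the start site, and the 150 bases before the start site are printed below. On both strands of the whole window, 8 motifs were searched: CRE (TGACGTCA), its half-site (TGACG, which is part of it), the CArG box bound by SRF, AP-1 (TGANTCA), the E-box (CACGTG), EGR (GCGNGGGCG), the NF-kB motif and the TATA box (TATAAA). Each of the 4 windows below holds at least 1 match, and those of Ier5 and Rhob hold none. The share of all windows that hold at least 1 of the 8 motifs was not counted, so 4 of 6 has no baseline and is not read as a trait of these genes. Matches are in capitals, printed 5′ to 3′ on the gene's strand.
Zfp36, chr7:28379229-28379378, minus strand: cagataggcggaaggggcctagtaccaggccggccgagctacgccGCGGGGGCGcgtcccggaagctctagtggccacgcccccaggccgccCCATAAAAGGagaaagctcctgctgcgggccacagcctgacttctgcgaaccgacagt
Zfp36l1, chr12:80113014-80113163, minus strand: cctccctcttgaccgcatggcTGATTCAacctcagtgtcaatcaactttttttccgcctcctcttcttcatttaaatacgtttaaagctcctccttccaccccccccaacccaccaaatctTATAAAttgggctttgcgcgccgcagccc
Ier3, chr17:35821563-35821712, plus strand: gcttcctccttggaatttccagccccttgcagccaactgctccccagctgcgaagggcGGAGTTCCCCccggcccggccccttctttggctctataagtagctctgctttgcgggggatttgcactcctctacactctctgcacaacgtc
Csrnp1, chr9:119984743-119984892, minus strand: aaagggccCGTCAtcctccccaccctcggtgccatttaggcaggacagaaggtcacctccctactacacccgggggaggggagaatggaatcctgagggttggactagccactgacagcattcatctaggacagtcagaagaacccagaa

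Zfp36 holds an EGR match at -105 and a CArG box at -58, Zfp36l1 an AP-1 match at -129 and a TATA box at -29, Ier3 an NF-kB match at -92 and Csrnp1, in the nearest of its 4 listed windows, a CRE half-site at -142. The start site used for Zfp36 lies 1025 bases from the 5′ end of the locus given above and inside it, so its window is within that locus. Positions count from the start site to the first base of the match. The shares over 32851 promoter windows count whole windows, 250 bases before and 50 bases after the start site, not the printed part alone. Of these windows, 5.55% hold an EGR match, 1.63% a CArG box, 7.81% an AP-1 match, 13.6% a TATA box, 4.51% an NF-kB match and 20.8% a CRE half-site. A full CRE (1.79% of windows) or an E-box (7.15%) was in none of the 6. Such matches describe letters in the window, and binding was not measured.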

How the data were processed

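Poly-A RNA of LSKs was sequenced in 12 libraries, 3 in each of 4 groups, from a stranded paired-end kit. The authors deposited counts of reads per gene, without normalization, and FPKM values, which the deposited table scales by gene length and library total. The submitters' processing notes name CASAVA 1.8, HISAT2, StringTie and edgeR and the build GRCm38, without their roles. edgeR 4.0.16 (in R 4.3.3) served to filter genes (filterByExpr, minimum count 10), compute TMM factors and run the quasi-likelihood test (glmQLFit, glmQLFTest) on the 6 libraries of each comparison, or on 12 for the interaction of genotype and treatment, with Benjamini-Hochberg adjustment over all genes. CPM used TMM factors over the 12 libraries. SE was not taken from the fit directly: it is the absolute log2 fold change divided by the square root of the quasi-likelihood F statistic. FPKM served only to order levels between genes. Totals of 22118154 to 28275079 counts limit precision for genes with few counts. Sequences were read from GENCODE M21 and RefSeq (GRCm38.p6) with Python 3.11 and pandas 2.3.3. The scripts were tested on simulated data.

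Members and lists were chosen with earlier results of these data known. Named genes are the 10, their paralogs, up to 2 genes per list and direction with the largest folds among those called with at least 1 CPM, and the 5 most alike. Alternatives were DESeq2 1.42.0, RLE factors, library totals, no filter, at least 10 counts in every library, the replicate block, all libraries in 1 fit, fold rules and leaving out each library. A list of partners of 1 member is not reported here.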

Additional observations from a re-analysis of the deposited data

Results flagged for a closer look

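The following differ between treatments by the test of the difference itself, the genotype effect after 5-FU minus that in untreated LSKs in edgeR's fit of 12 libraries. The difference was positive for all 10 early-response genes, that is, the fitted genotype effect was smaller after 5-FU, and it passed the threshold for 6. On the log2 scale the values of these 6 were 0.94 for Csrnp1, 0.54 for Ier3, 0.44 for Zfp36, 0.44 for Sik1, 0.42 for Ier5 and 0.28 for Kdm6b. The values for Csrnp1, Zfp36 and Sik1 passed the threshold in all 12 fits that left out 1 library, that for Kdm6b in 9, that for Ier3 in 4 and that for Ier5 in 1. These genes were chosen with results of the untreated libraries known, and the values are descriptions.

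Rhoa, a paralog of Rhob, had a difference of 0.28 (SE 0.066, adjusted p = 0.0288, edgeR), from -0.14 in untreated LSKs to 0.14 after 5-FU. It lost the call in 8 of the 12 fits that left out 1 library (adjusted p up to 0.0946), with library totals in place of TMM factors (adjusted p = 0.069) and without a filter (adjusted p = 0.0685).

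Csrnp3, a paralog of Csrnp1, had a fitted difference of -13.51, which depends on the groups at 0 counts and gives no size. Its counts were 0 in the 3 untreated Tespa1+/+ libraries, 9, 18 and 20 in untreated Tespa1-/-, 7, 12 and 14 in Tespa1+/+ after 5-FU and 0 in the 3 Tespa1-/- libraries after 5-FU.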

How the results depend on the processing

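Over all alternatives, the 10 genes kept the direction of each fitted difference in the comparisons and in the interaction. Of their values, 657 stayed on the same side of the threshold, 40 dropped below it and 3 passed it only in the alternative. A required fold above 1.5, with the adjusted or the unadjusted p, left 6 of the 10 genes between genotypes in untreated LSKs, 2 of the 10 genes between genotypes after 5-FU, 5 for 5-FU in Tespa1+/+, 1 for 5-FU in Tespa1-/- and 1 for the interaction. In the same order and direction, 1.54%, 3.03%, 1.69%, 4.07% and 1.66% of all genes passed with the adjusted p. With the unadjusted p the shares were 3.2%, 5.94%, 3.54%, 6.58% and 4.16%. In fits without 1 library the count called ran from 7 to 9 between genotypes in untreated LSKs, from 6 to 7 after 5-FU, from 8 to 9 and from 6 to 7 for 5-FU in Tespa1+/+ and Tespa1-/-, and from 3 to 5 for the interaction. In untreated LSKs the calls of Ier5 (without any single Tespa1-/- library) and Zfp36l1 (without library 2 of Tespa1-/-) were lost. Replicate numbers do not pair the libraries: deviations of same-numbered libraries correlated at -0.057 to 0.025, and not every library correlated best with its own number. The replicate block left 9, 7, 9 and 7 genes called in the comparisons and 4 in place of 6 for the interaction, where Ier3 and Ier5 were lost, and it changed no other call of the 10. Over all genes, DESeq2 called 1427 in place of 892 between genotypes in untreated LSKs, 2062 in place of 1352 for 5-FU in Tespa1+/+ and 1535 in place of 936 for the interaction, the block called 454 in the first, and 1 fit of all 12 libraries called 2113 in the second. In fits without 1 library these ran from 338 to 808, from 783 to 1102 and from 573 to 862. Without a filter, the median of AU-rich transcripts between genotypes in untreated LSKs was -0.84, since genes with few counts joined the list. The FPKM order of the 10 genes had 0 to 2 places changed in fits without 1 library, and with Spearman's rho in place of Pearson's r, 0 of the 5 most alike genes were the same. Of the paralogs, Rhoa and Sik3 were refitted under the alternatives. The sign of 2 of their values turned when 1 library was left out: Rhoa for 5-FU in Tespa1-/- ran from -0.028 to 0.028 and the interaction of Sik3 from -0.11 to 0.013, and the cause was not tested. Depth limits Csrnp3, Rhoc and Ier5l, whose counts were few.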

Other observations

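Heat-shock chaperones, which cells raise under protein stress, were also read. This list was chosen with earlier results of these data known, so its values and adjusted p-values are descriptions. Of 11 genes, 10 were tested in untreated LSKs, and Hsph1 and Hspa1b were higher in Tespa1-/- LSKs while 0 were lower, against 1.64% and 3.59% of all genes tested (unadjusted p under 0.05, 0 lower; DESeq2, 0 lower). Hsph1, an HSP110 chaperone, had 137 ± 14.1 CPM (SD, n = 3) in Tespa1+/+ and 206 ± 6.93 CPM in Tespa1-/- LSKs, a log2 fold change of 0.59 (SE 0.077) (adjusted p = 0.00389, edgeR), and it was higher after 5-FU too, by 0.39 (adjusted p = 0.00433, edgeR). With 5-FU, 6 chaperones were lower and 0 higher in each genotype, against 4.18% and 8.64% of all genes lower in Tespa1+/+ and Tespa1-/- LSKs (unadjusted p under 0.05 and DESeq2, 0 higher in each). Hspa1b and Hspa1a, the inducible HSP70 genes, whose near-identical sequences can share reads, had log2 fold changes of -1.82 (SE 0.16) and -1.76 (SE 0.18) in Tespa1+/+ LSKs (adjusted p = 0.000189 and 0.000486, edgeR) and -1.70 (SE 0.11) and -1.40 (SE 0.17) in Tespa1-/- LSKs (adjusted p = 1.89e-05 and 0.00068, edgeR).

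B-lymphoid markers rose with 5-FU in both genotypes. Of the 9 listed, 8 were tested in Tespa1+/+ LSKs, and all 8 were higher at an adjusted p under 0.05 (edgeR). In Tespa1-/- LSKs all 9 were higher in the fit and 8 passed that threshold. Over all genes tested, 3.77% and 10.7% were called higher in Tespa1+/+ and Tespa1-/- LSKs. This list was chosen with earlier results of these data known, so its values are descriptions. Rag1, a recombinase gene of early lymphoid cells, had log2 fold changes of 2.90 (SE 0.095) and 3.47 (SE 0.081) (adjusted p = 9.12e-07 and 4.66e-08, edgeR).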
